A study of Mus musculus with 6 samples.

Results

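The 40S small subunit of the cytosolic ribosome carries 18S rRNA and a set of small-subunit ribosomal proteins, and this report describes the mRNAs of those proteins in mouse blastocysts. Genes were taken as members when GENCODE lists them as protein-coding and their symbol is Rps with a number (with the endings a, a1, l or x allowed), together with Rpsa and Fau. This gave 33 genes of the 55774 rows of the table, and all 33 passed the filter on low values. Rps4l, which GENCODE M21 lists as a transcribed pseudogene, and Rps27rt, whose symbol falls outside the rule, were not members.

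WT two-cell embryos from female ICR mice were cultured to the blastocyst stage in CZB medium with extracellular vesicles isolated from human Fallopian tubal fluid. Vesicles from women with endometriosis gave the oEV-EMT group, and vesicles from women without it gave the oEV-ctrl group. The labels give the control donors uterine fibroids, whereas the study's methods name cervical intraepithelial neoplasia. Each group had 3 libraries of 10 pooled blastocysts, polyA-selected, and no library of blastocysts cultured without vesicles was analysed here, so both groups share exposure to human vesicles. Values are FPKM, fragments scaled for transcript length and for the fragments of the library, and the number of reads behind them is unknown. Nothing in the labels says that the 3 libraries of a group came from separate cultures or donors, so p-values measure only the spread between these libraries. All 9 trophectoderm, 7 epiblast and 6 primitive endoderm markers looked up were detected, the trophectoderm markers summing to 3147 to 4752 FPKM with oEV-EMT and 3087 to 4845 FPKM with oEV-ctrl. Epiblast markers summed to 106 to 147 FPKM with oEV-EMT and 59.2 to 103 FPKM with oEV-ctrl, a higher sum in every oEV-EMT library. Of the 7, 3 were higher without overlap, beside 18.1% of all tested genes. Primitive endoderm markers summed to 135 to 262 and 180.2 to 236 FPKM, with 2 of 6 higher without overlap, beside the same 18.1%. The part of these lineage markers in the differences of the ribosomal protein mRNAs was not tested. Summed markers of cumulus or granulosa cells, oviduct epithelium and blood did not exceed 4.43 FPKM in any library, with Amh, Cyp19a1, Fshr, Foxj1, Wt1, Hbb-bs, Hbb-bt and Ptprc at 0 in every library. In libraries of whole blastocysts, fewer cells of a type and less RNA per cell cannot be told apart.

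The small subunit binds the mRNA, scans for the start codon and matches codons to tRNAs in its decoding centre. It has a head and a body with a platform, and the mRNA passes between them from an entry to an exit channel. Each of its proteins is made separately and assembled with the rRNA in the nucleolus, the nucleoplasm and the cytoplasm. Many mRNAs of the translation machinery begin with a C followed by a run of pyrimidines, the TOP motif, through which the mTOR pathway and the RNA-binding protein LARP1 control their translation. Early embryos inherit ribosomes from the oocyte and make their own once the embryonic genome is active.

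Start regions are shown for members that the results turn on, since the TOP motif is the best known sequence feature that these mRNAs share. RefSeq start windows of 30 bases, 15 before the start and 15 from it, were matched for 25 members on GRCm38.p6. Capitals mark a run of at least 7 bases, all C or T, that begins with C, anywhere in the window, searched on the transcribed strand only. In Rps15a and Rps27l it lies wholly before the annotated start, and in Rps12 and Rps26 wholly beyond the start base. Such a run therefore need not be a TOP motif.
Rps27: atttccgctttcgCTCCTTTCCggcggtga
Rps6: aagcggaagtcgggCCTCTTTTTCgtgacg
Fau: tgcgcgcccccaCTTCTTCCTCTTTCTTga
Rps18: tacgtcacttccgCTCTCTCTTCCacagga
Rps28: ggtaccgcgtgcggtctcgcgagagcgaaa
Rps23: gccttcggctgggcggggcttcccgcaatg
The windows lie at chr3:90213634-90213663 on the minus strand for Rps27, chr4:86857353-86857382 on the minus strand for Rps6, chr19:6057932-6057961 on the plus strand for Fau, chr17:33955651-33955680 on the minus strand for Rps18, chr17:33824548-33824577 on the minus strand for Rps28 and chr13:90923107-90923136 on the plus strand for Rps23. Such a run was found in 12 of the 25 matched members, or 48%, in 17 of 36 large-subunit genes, or 47.2%, and in 1076 of 7618 tested protein-coding genes, or 14.1%. Among the 6 shown, Rps27, Rps6, Fau and Rps18 hold a run in the window, while in Rps28 and Rps23 these letters were not found in it. The members Rps14, Rps20, Rps27a and Rps29 are named only.

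Coding sequence is shown where a member's value may depend on how reads were assigned among near-identical genes. Each line gives the first 120 coding bases from GENCODE M21 on GRCm38, with capitals at bases that differ from the member above.
Rps28: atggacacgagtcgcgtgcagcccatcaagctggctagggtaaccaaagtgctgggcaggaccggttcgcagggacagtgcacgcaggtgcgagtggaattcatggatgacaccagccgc
Rps27: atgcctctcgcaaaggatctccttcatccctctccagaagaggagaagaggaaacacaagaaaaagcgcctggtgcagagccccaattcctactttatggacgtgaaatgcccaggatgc
Rps27l: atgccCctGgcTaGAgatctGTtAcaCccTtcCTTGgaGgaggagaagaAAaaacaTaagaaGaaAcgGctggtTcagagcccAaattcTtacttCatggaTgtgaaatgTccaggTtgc
Rps2: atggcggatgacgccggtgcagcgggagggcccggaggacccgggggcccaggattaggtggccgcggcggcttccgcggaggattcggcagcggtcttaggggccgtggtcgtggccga
Rps2-ps13: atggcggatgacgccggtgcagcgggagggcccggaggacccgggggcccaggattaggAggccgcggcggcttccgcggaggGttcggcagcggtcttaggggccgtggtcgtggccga
Rps28, at chr17:33819027-33824562 on the minus strand, has an intronless copy, Gm10443, at chr6:86334031-86334240 on the plus strand, with 0 differing bases over all 210 coding bases. A second copy, Gm10263, at chr13:73317844-73318143 on the plus strand, differs at 1 of 210 bases. Rps27, at chr3:90212522-90213651 on the minus strand, differs at 0 of 255 coding bases from Rps27rt, at chr9:114982370-114982740 on the minus strand. Its paralog Rps27l, at chr9:66946086-66949516 on the plus strand, differs from Rps27 at 61 of 255 bases, 28 of them within the bases shown. Rps2-ps13, a processed pseudogene at chrX:52898588-52899469 on the plus strand, differs from Rps2, at chr17:24718116-24721929 on the plus strand, at 2 of the first 120 bases.

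The members were among the most abundant mRNAs of the blastocyst. Their mean FPKM over the 6 libraries had a median of 829, against a median of 7.74 over the 11924 tested genes. Of the 200 genes with the highest mean FPKM, 17 were members, and the least abundant member ranked 1276. The mRNA levels differed 59.1-fold between Rps27 (mean 5726 FPKM) and Rps18 (mean 96.9 FPKM). Rps27l followed at 4352 FPKM, then Rps14 at 3821 FPKM and Rps26 at 2958 FPKM. In all, 12 members had a mean of at least 1000 FPKM, and 5, among them Rps18, Rps15a, Rps20 and Rps12, had a mean under 300 FPKM. In the order of levels each member overlapped the next in its range over the 6 libraries, except Rps20 and Rps18 at the bottom. GENCODE gives Rps15a and Rps20 long principal transcripts of 5179 and 3706 bases, and their FPKM depend on which length the authors used.

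**Figure D1:**
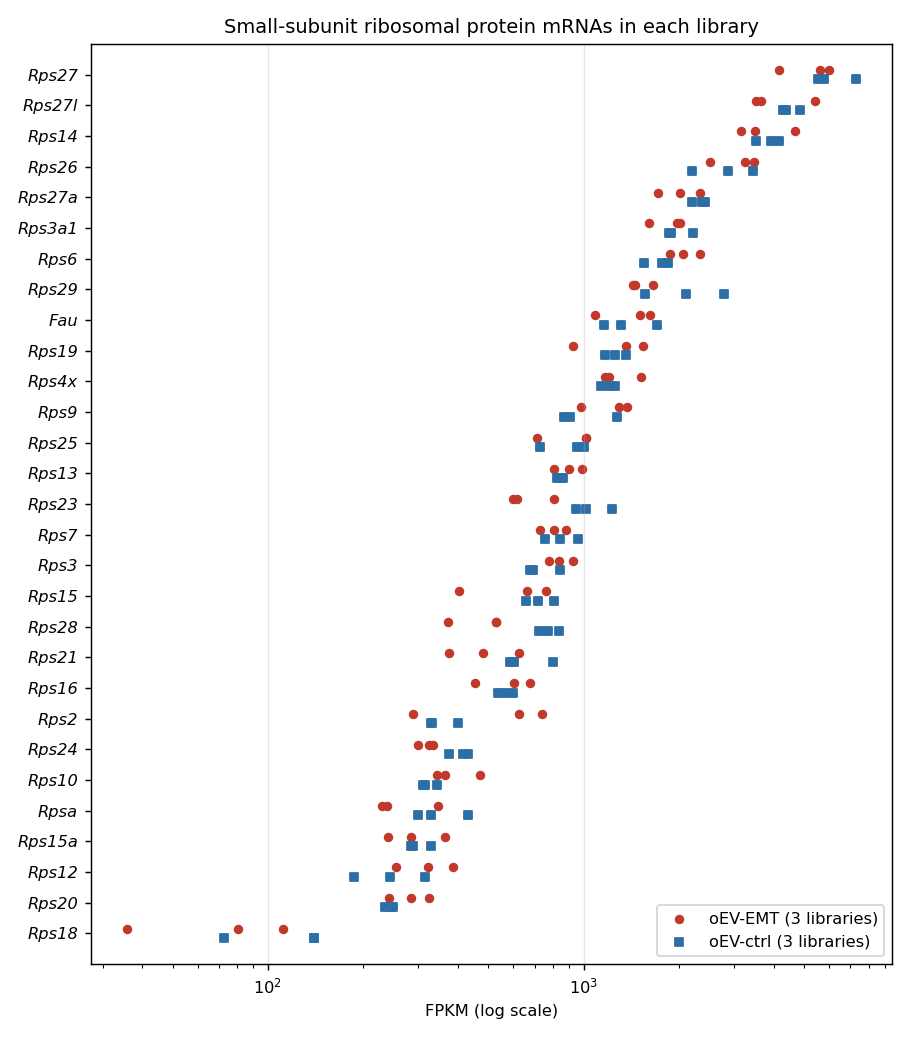
FPKM of members in each library on a log axis, members ordered by their mean over the 6 libraries; red circles are the 3 oEV-EMT libraries and blue squares the 3 oEV-ctrl libraries. The order runs from Rps27 (mean 5726) to Rps18 (mean 96.9), and for most members the groups overlap.

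Most members share sequence with copies elsewhere in the genome, and how the authors' processing assigned reads among them is not known. A gene was counted as sharing sequence with a member when at least 10% of the 50-base stretches of either were found in the other on either strand, and 32 of 33 members had such a gene, small non-coding RNA genes in introns being left out. Such genes are called copies where values are summed, but not all are copies, as with Trappc4 for Rps25 and Med21 for Rps26. The median member held 77.1% of the FPKM summed over itself and these genes, and 7 members held at least 90%. At the low end, Rps28 held 12.7%, Rps2 13.1%, Rps18 15.2%, Rps20 35.8%, Rps12 46.7% and Rps13 49.8%. With copies added, the highest and lowest members differed 21.7-fold. The share held by Rps28 was similar in every library, whereas that of Rps2 varied from 6.46% to 26.4%. FPKM of these 6 members are therefore uncertain as levels of 1 gene.

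**Figure D2:**
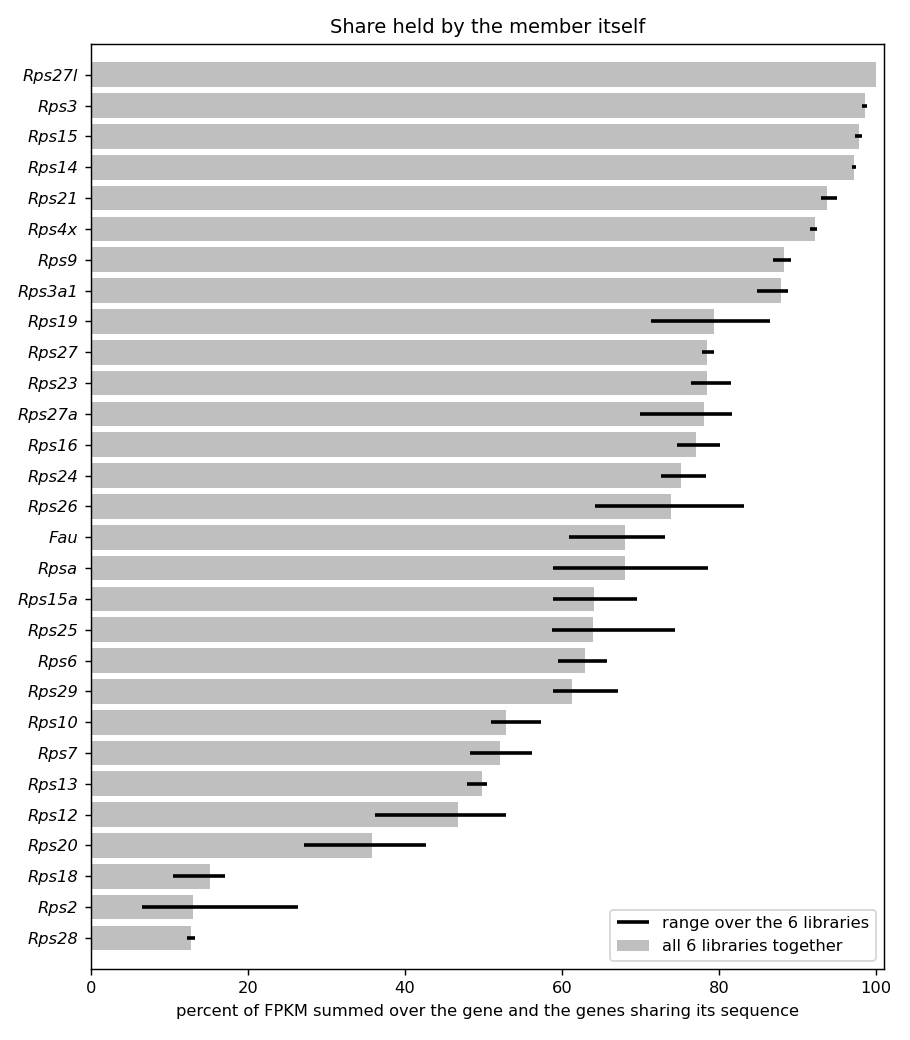
Percent of the FPKM summed over a member and the genes sharing its sequence that the member itself holds; grey bars are the 6 libraries together and black lines the range over libraries. Rps27l stands at 100%, Rps28, Rps2 and Rps18 under 16%, and Rps2 has the widest relative range.

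The comparison of oEV-EMT with oEV-ctrl asks how the disease state of the vesicle donors relates to gene expression in the embryo. No member passed both thresholds, an adjusted p no higher than 0.05 and a log2 fold change no smaller than 1 in either direction (limma on log2(FPKM + 1), Benjamini-Hochberg over 11924 genes). The count was 0 of 33, beside 0% of all tested genes. The study, using DESeq2 with the same thresholds, did report differentially expressed genes, so the 0% describes the fit used here. The smallest adjusted p among members was 0.167, for Rps28. At an unadjusted p of at most 0.05, 2 members were lower in oEV-EMT (Rps28 and Rps23), beside 2.55% of all genes, and 0 were higher, beside 12.8% of all genes. Every oEV-EMT library was below every oEV-ctrl library for 4 members, among them Rps28, Rps23 and Rps24, beside 4.34% of all genes. Every oEV-EMT library was above every oEV-ctrl library for 2 (Rps10 and Rps6), beside 18.1%. Shares of large-subunit genes were close to those of members. Of 49 tested, 3 (6.12%) were lower and 1 higher at an unadjusted limma p of at most 0.05. Without overlap, 6 (12.2%) were lower and 4 higher, where the lower members made up 12.1%.

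Over the 11924 genes the log2 fold change had a median of 0.17, so values for members are also given relative to it. Relative to that median, 26 of 33 members were lower in oEV-EMT, beside 50% of all genes, and the median member stood at -0.22. Large-subunit members stood at -0.18 with 36 of 49 lower, and at -0.12 without oEV-ctrl 1. The fitted median of the small-subunit members, without this shift, was -0.05, and it became -0.25 after median-of-ratios, -0.26 after upper quartile and 0.045 after total scaling. The counts moved with the scaling too. After median-of-ratios scaling, 9 members were lower at an unadjusted p of at most 0.05, beside 6.42% of genes, and 0 higher, beside 6.53%. Groups then did not overlap for 12 lower members, beside 10.2%, and for 0 higher members, beside 9.94%. Of 49 large-subunit genes, 14 were lower and 1 higher without overlap after this scaling. Upper quartile scaling gave 13 lower members without overlap, beside 10.7% of genes, and 0 higher, beside 9.23%. Scaling each library to a total of 1000000 gave 2 lower, beside 2.71%, and 4 higher, beside 22.7%, where 1 unannotated row took 15.3% to 31.5% of each total. Leaving out a single library moved the counts of members and of all genes. Members lower at an unadjusted p numbered 5 without oEV-EMT 1, beside 4.84% of genes, and 5 without oEV-ctrl 1, beside 2.04%. Members without overlap in the lower direction numbered 7 without oEV-EMT 1, beside 12.6%, 8 without oEV-EMT 3, beside 6.15%, and 7 without oEV-ctrl 1, beside 7.32%. In the higher direction they numbered 4 without oEV-EMT 1, beside 27.2%, 6 without oEV-EMT 2, beside 23.1%, 4 without oEV-EMT 3, beside 30.6%, and 5 without oEV-ctrl 1, beside 22.1%.

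**Figure D3:**
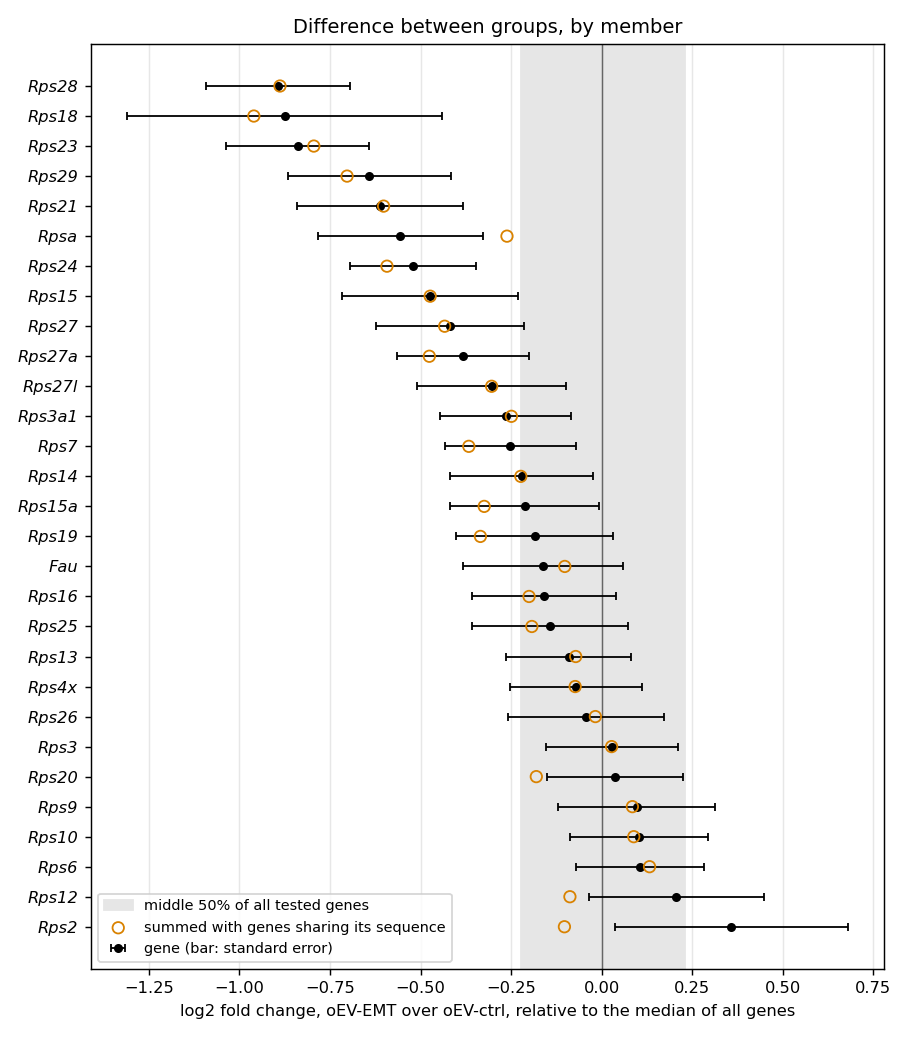
Log2 fold change of oEV-EMT over oEV-ctrl relative to the median of all tested genes, for members with their standard error (black) and for each summed with genes sharing its sequence (open circles); the grey band holds the middle 50% of all tested genes. Values run from -0.89 for Rps28 to 0.36 for Rps2, and summing moved Rps2, Rps12 and Rps20 across the median.

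Members with the lowest log2 fold changes included 3 proteins of the head (Rps28, Rps18 and Rps29) and, in the body, Rps23 and Rps21. Rps28 lies at the mRNA exit channel. Its values were 526, 371 and 528 FPKM with oEV-EMT and 769.7, 836 and 721 FPKM with oEV-ctrl. All 3 oEV-EMT libraries were below all oEV-ctrl libraries, and the log2 fold change was -0.72 ± 0.20 (SE), with an adjusted p of 0.167 by limma. Rps23, a protein of the decoding centre that bears on the accuracy of translation, read 806, 598 and 615 FPKM with oEV-EMT and 1229, 1020.2 and 948 FPKM with oEV-ctrl. Here too the groups did not overlap, with a log2 fold change of -0.67 ± 0.20 (SE) and a limma adjusted p of 0.183. Rps18, which contacts the large subunit from the head, read 80.6, 112 and 35.9 FPKM with oEV-EMT and 72.9, 139.7 and 140.3 FPKM with oEV-ctrl. Its groups overlapped through oEV-ctrl 1, oEV-EMT 3 was the lowest library, and the log2 fold change was -0.70 ± 0.44 (SE) with a limma adjusted p of 0.476. Without oEV-EMT 3 its relative value was -0.46 in place of -0.88.

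Rps29, a zinc-binding protein of the head, read 1664, 1456 and 1435 FPKM with oEV-EMT and 1563, 2795 and 2118 FPKM with oEV-ctrl. The lowest control library lay within the oEV-EMT range, the log2 fold change was -0.47 ± 0.22 (SE) (limma adjusted p = 0.350), and the relative value was -0.41 without oEV-ctrl 2 in place of -0.64. Rps21, a small protein of the body, read 622, 481 and 375 FPKM with oEV-EMT and 602, 798 and 584 FPKM with oEV-ctrl. The groups overlapped and the log2 fold change was -0.44 ± 0.23 (SE) (limma adjusted p = 0.383).

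Rps24 was another member whose oEV-EMT values all lay below the controls. It read 334, 324 and 299 FPKM with oEV-EMT and 374, 432 and 415 FPKM with oEV-ctrl, a log2 fold change of -0.35 ± 0.17 (SE). Its unadjusted p was 0.0723 by limma, with an adjusted p of 0.369. Rps24 is affected in Diamond-Blackfan anaemia, a congenital failure of red cell production caused by loss of 1 copy of a ribosomal protein gene.

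The 2 most abundant copies of Rps28 also had lower values in every oEV-EMT library than in any control. Gm10443, identical in its coding bases, read 1139, 809 and 1136 FPKM with oEV-EMT and 2305, 2126 and 1719 FPKM with oEV-ctrl. Its log2 fold change was -1.002 (limma adjusted p = 0.117). Gm10263 read 2479, 1601 and 2123 FPKM with oEV-EMT and 2527, 3322 and 2642 FPKM with oEV-ctrl, with -0.47 and an adjusted p of 0.329. The next most abundant copy, Gm13192, read 150, 133 and 152 FPKM with oEV-EMT and 438, 390 and 328 FPKM with oEV-ctrl. Its log2 fold change was -1.40 (limma adjusted p = 0.0934). How reads were assigned among Rps28 and its copies is not known, so their values cannot be taken as separate measurements. Summed with its copies, Rps28 had a log2 fold change of -0.72 (adjusted p = 0.164 by limma), and the groups still did not overlap. If reads were divided among them, the sum depends less on how, although each gene's FPKM is scaled to its own length. For Rps23 and Rps24 the groups also did not overlap after summing. Of the 33 members, 26 moved by less than 0.1 on the log2 scale when summed.

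At the other end, Rps2, Rps12 and Rps6 had the highest log2 fold changes. Rps2, a protein of the mRNA entry channel, read 737, 287 and 625 FPKM with oEV-EMT and 400.4, 329 and 332 FPKM with oEV-ctrl. The groups overlapped through oEV-EMT 2, the lowest library, and the log2 fold change was 0.53 ± 0.32 (SE) with a limma adjusted p of 0.460. Its copy Rps2-ps13 read 1217, 3024 and 1891 FPKM with oEV-EMT and 2333, 1402 and 1919.9 FPKM with oEV-ctrl, highest in the library where Rps2 was lowest. Summed with the 41 genes sharing its sequence, Rps2 had a log2 fold change of 0.07, a move of 0.46 and the largest of any member. Without oEV-EMT 2 its own relative value was 0.78 in place of 0.36, and without oEV-EMT 1 and oEV-EMT 3 it was 0.13 and 0.17.

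Rps12, a protein of the head, read 387, 255 and 322 FPKM with oEV-EMT and 314, 245 and 188 FPKM with oEV-ctrl. The groups overlapped, and the log2 fold change was 0.38 ± 0.24 (SE) (limma adjusted p = 0.477). With the 20 genes sharing its sequence added, the log2 fold change of Rps12 was 0.08. Its relative value of 0.21 became -0.02 without oEV-ctrl 3 and 0.41 without oEV-ctrl 1. Rps6, the substrate of S6 kinase downstream of mTOR, read 1878, 2064 and 2346 FPKM with oEV-EMT and 1848, 1559 and 1769.6 FPKM with oEV-ctrl. All 3 oEV-EMT values lay above the controls, with a log2 fold change of 0.28 ± 0.18 (SE) and a limma adjusted p of 0.477. This is above the members' median but near that of all genes, at a relative value of 0.11, and -0.02 without oEV-EMT 3. Rps10, which is ubiquitinated on stalled ribosomes, was the other member without overlap in this direction, with 471, 344 and 365 FPKM with oEV-EMT and 314, 309 and 343 FPKM with oEV-ctrl and a log2 fold change of 0.27 ± 0.19 (SE) (limma adjusted p = 0.515). After its copies were added its groups overlapped.

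Members with functions or structures of their own were followed by name. Rpsa, also known as a laminin receptor, read 346, 238 and 230.4 FPKM with oEV-EMT and 431, 298 and 329.7 FPKM with oEV-ctrl. Its log2 fold change was -0.38 ± 0.23 (SE) with a limma adjusted p of 0.447, and the groups overlapped. With the 13 genes sharing its sequence added, the log2 fold change was -0.09. Rps27a, made as a fusion with ubiquitin, read 2027, 1724 and 2343 FPKM with oEV-EMT and 2424, 2369 and 2210.3 FPKM with oEV-ctrl, a log2 fold change of -0.21 ± 0.18 (SE). Fau, made as a fusion of a ubiquitin-like protein with Rps30, read 1085, 1624 and 1509.6 FPKM with oEV-EMT and 1705, 1163 and 1316 FPKM with oEV-ctrl, a log2 fold change of 0.01 ± 0.22 (SE). In both the groups overlapped, with limma adjusted p of 0.608 and 0.988. Fau was lowest in oEV-EMT 1 and highest in oEV-ctrl 1, and its relative value of -0.16 became 0.05 and 0.01 without these libraries.

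Rps27 and Rps27l encode zinc-binding paralogs that occupy the same place in the subunit, and Rps27l is known as a p53 target. Rps27 read 5614, 4148 and 5992 FPKM with oEV-EMT and 5777, 7299 and 5524 FPKM with oEV-ctrl, which gave a log2 fold change of -0.25 ± 0.20 (SE) (limma adjusted p = 0.590). Rps27l read 3639.7, 3513 and 5429.7 FPKM with oEV-EMT and 4392, 4851 and 4288 FPKM with oEV-ctrl, which gave -0.13 ± 0.21 (SE) on the log2 scale (limma adjusted p = 0.786). Both overlapped between groups. The relative value of Rps27, -0.42, became -0.25 without oEV-EMT 2 and -0.27 without oEV-ctrl 2. That of Rps27l, -0.30, became -0.18 without oEV-EMT 1, -0.18 without oEV-EMT 2 and -0.55 without oEV-EMT 3. The ratio of Rps27l to Rps27 was 0.648, 0.847 and 0.906 with oEV-EMT and 0.760, 0.665 and 0.776 with oEV-ctrl. On the log2 scale it was -0.34 ± 0.26 against -0.45 ± 0.12 (SD, n = 3 each), two-sided exact permutation p = 0.6. With 3 libraries against 3 this test cannot give a p below 0.1. The log2 difference of 0.11 became 0.26, 0.07, 0.02 and 0.05 without oEV-EMT 1, oEV-EMT 2, oEV-EMT 3 and oEV-ctrl 2.

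Rps14 and Rps19 are the members best known from human disease, Rps14 from a form of myelodysplastic syndrome in which 1 copy is deleted and Rps19 as the gene most often affected in Diamond-Blackfan anaemia. Rps14 read 3165, 3483 and 4687 FPKM with oEV-EMT and 4158, 3918 and 3512 FPKM with oEV-ctrl, a log2 fold change of -0.05 ± 0.20 (SE). Rps19 read 1546, 1361 and 925 FPKM with oEV-EMT and 1167, 1255 and 1366 FPKM with oEV-ctrl, a log2 fold change of -0.01 ± 0.22 (SE). Both overlapped between groups, with limma adjusted p of 0.925 and 0.984. For both, oEV-EMT 3 was at an extreme of the 6 libraries, Rps14 at its highest and Rps19 at its lowest. Relative values without that library were -0.43 in place of -0.22 for Rps14 and -0.01 in place of -0.18 for Rps19. That of Rps19 was -0.31 without oEV-EMT 1, and that of Rps14 was -0.07 and -0.14 without oEV-EMT 1 and oEV-ctrl 1.

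Rps3, at the mRNA entry channel, read 780.1, 926 and 833 FPKM with oEV-EMT and 844, 677 and 694 FPKM with oEV-ctrl. Rps26, which touches the mRNA at the exit channel, read 3469.7, 2521 and 3246 FPKM with oEV-EMT and 2209.8, 3441 and 2861 FPKM with oEV-ctrl. Rps4x, the X-linked member, read 1169, 1201 and 1526 FPKM with oEV-EMT and 1135, 1214 and 1258 FPKM with oEV-ctrl. All 3 overlapped between groups, with log2 fold changes of 0.20 ± 0.18 (SE), 0.13 ± 0.22 (SE) and 0.10 ± 0.18 (SE) and limma adjusted p of 0.626, 0.802 and 0.814. Rps4l, the related transcribed pseudogene, read 391, 458 and 283 FPKM with oEV-EMT and 404, 266 and 376 FPKM with oEV-ctrl, and its groups overlapped too. Relative to the median of all genes, the direction of Rps3, Rps26 and Rps4x changed with the processing, as the closing section gives.

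A further 9 members had relative values from -0.47 (Rps15) to 0.10 (Rps9) and limma adjusted p from 0.580 to 0.982. As group means ± SD (n = 3 each, oEV-EMT first), the head proteins among them were Rps15 with 608 ± 183 against 727 ± 74.8 FPKM, Rps16 with 577 ± 113 against 565 ± 30.7 FPKM, Rps25 with 916 ± 177 against 895 ± 149 FPKM and Rps20 with 283 ± 40.9 against 243 ± 7.92 FPKM. All 4 overlapped between groups. Of the body and platform, Rps3a1 had 1873 ± 222 against 1994 ± 200.5 FPKM, Rps7 806 ± 76.3 against 853 ± 103 FPKM, Rps9 1217 ± 206 against 1015 ± 225 FPKM, Rps13 896 ± 91.6 against 844 ± 20.9 FPKM and Rps15a 296 ± 63 against 301 ± 23.9 FPKM. These 5 overlapped as well.

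By position, the 14 head members had a median relative log2 fold change of -0.17, and 10 of them lay below 0, and the 19 members of the body and platform had -0.25, with 16 below. Both groups held members at both ends, from -0.89 to 0.21 in the head and from -0.84 to 0.36 in the body and platform. Without oEV-EMT 1 the head stood at -0.28. The 10 members linked to Diamond-Blackfan anaemia, among them Rps7, Rps10, Rps15a, Rps19, Rps24, Rps26, Rps27, Rps28 and Rps29, had a median of -0.33, and 9 of them lay below the all-gene median. That median was -0.22 without oEV-ctrl 2 and -0.19 without the filter on low values. Of these, 3 were lower without overlap, Rps24 and Rps28 among them, beside 4.34% of all genes, and 1 higher (Rps10), beside 18.1%. Members with a pyrimidine run anywhere in the start window had a median of -0.19 (n = 12) and those without it -0.18 (n = 13). The run was not required to begin at the start of the mRNA, so this does not compare members with and without a TOP motif.

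Short members lay lower. The 6 members whose principal transcript is under 500 bases, among them Rps21, Rps27, Rps27l, Rps28 and Rps29, were all below the median of all genes, at a median of -0.60, against -0.16 for the other 27. The limit was chosen after values were seen. Of the 99 tested protein-coding genes under 500 bases, 58.6% were below the median, at a median of -0.08, and of all 955 tested genes under that length 66.4% were below, at -0.17. Across the 33 members the log2 fold change and log2 transcript length had a Pearson r of 0.34 and, with length by rank, a Spearman rho of 0.42. These are over genes of the same 6 libraries and are given as a description. With GC content Pearson r was 0.04 and with mean log2 level 0.13.

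Library by library, the members did not move as 1 block. Deviations were taken on the log2 scale from a gene's mean over the 6 libraries and set relative to the median gene of the library. The median member stood at -0.17, -0.22 and 0.06 in oEV-EMT 1, 2 and 3 and at 0.14, 0.17 and 0.02 in oEV-ctrl 1, 2 and 3. The difference was -0.22, with a two-sided exact permutation p of 0.2. Library oEV-EMT 3 held the widest spread, with Rps18 at -1.26 and Rps2 at 0.57 and an interquartile range of 0.53 over members, against 0.17 in oEV-ctrl 3. As a value in FPKM, the lowest library was oEV-EMT 2 for 11 members and oEV-EMT 3 for another 11, where 9.67% and 19.5% of all tested genes had their lowest value.

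**Figure D4:**
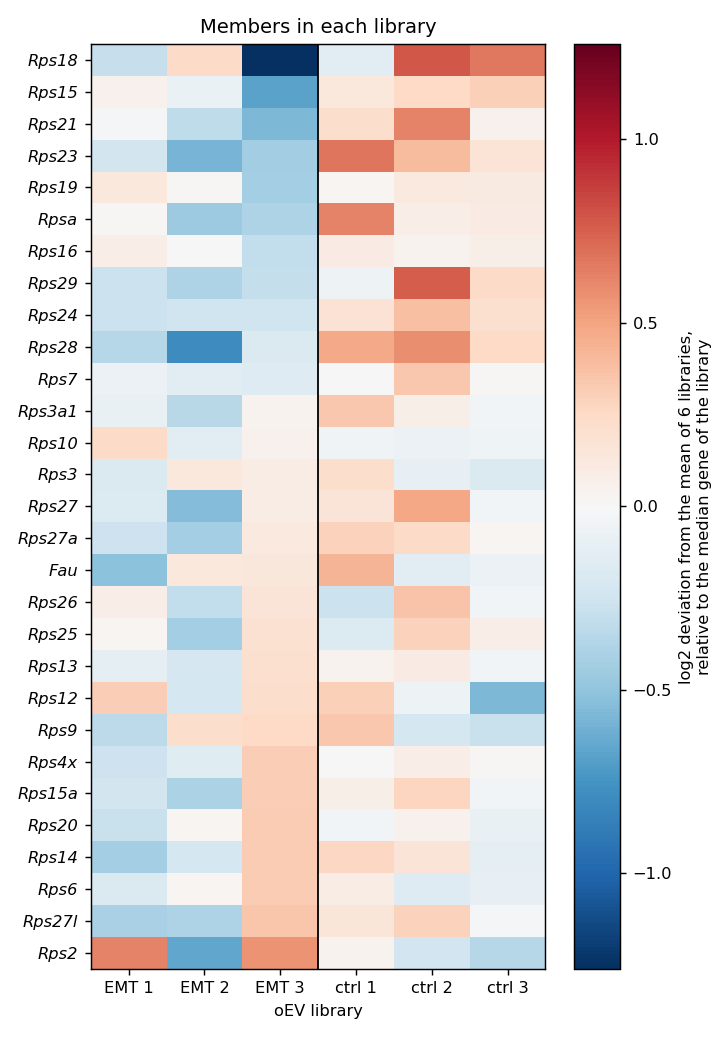
Log2 deviation of members from their mean over 6 libraries, relative to the median gene of that library, with members ordered by oEV-EMT 3; blue is low and red is high, and the black line separates oEV-EMT from oEV-ctrl. Rps18 and Rps15 are lowest in oEV-EMT 3, where Rps2, Rps27l and Rps6 are high, and Rps28 and Rps27 are lowest in oEV-EMT 2.

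Summed over members, small-subunit mRNAs made up 5.48%, 4.76% and 5.37% of the FPKM of annotated genes with oEV-EMT and 4.95%, 5.30% and 5.10% with oEV-ctrl. The means were 5.21 ± 0.389 and 5.12 ± 0.176 (SD, n = 3 each), a difference of 0.0898 percentage points with a two-sided exact permutation p of 0.7. The sign of this difference depended on the denominator and on single libraries. Mitochondrially encoded genes took 6.85% to 8.18% of annotated FPKM with oEV-EMT and 10.3% to 13.7% with oEV-ctrl, and of the FPKM of nuclear protein-coding genes alone the members made up 6.88% against 7.37%, a difference of -0.487 points (exact permutation p = 0.3). In share of annotated FPKM, the difference was -0.0496 points without oEV-EMT 1, 0.312 without oEV-EMT 2 and 0.00698 without oEV-EMT 3. It was 0.00516 without oEV-ctrl 1 and 0.181 without oEV-ctrl 2.

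The ratio of small-subunit to large-subunit FPKM was 0.837, 0.820 and 0.863 with oEV-EMT and 0.868, 0.926 and 0.847 with oEV-ctrl. The log2 ratios were -0.25 ± 0.04 and -0.18 ± 0.07 (SD, n = 3 each), a difference of -0.07 with a two-sided exact permutation p of 0.2, and of -0.03 without oEV-ctrl 2. When both subunits were summed with the genes sharing their sequence, the log2 ratios were -0.46 ± 0.02 and -0.36 ± 0.04. They did not overlap, at the smallest p the design allows, 0.1. The difference of mean log2 levels between the subunits also did not overlap, at 0.56 ± 0.04 against 0.66 ± 0.04 (exact permutation p = 0.1).

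**Figure D5:**
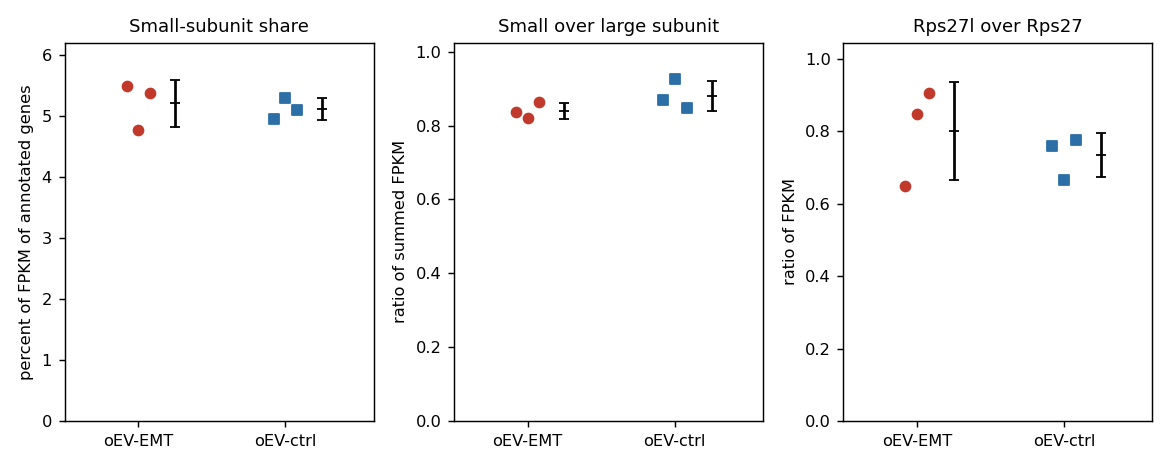
Small-subunit share of annotated FPKM (percent), ratio of summed small-subunit to large-subunit FPKM, and ratio of Rps27l to Rps27, with 1 point per library and the mean ± SD of 3 libraries beside them; axes start at 0. In each panel the oEV-EMT and oEV-ctrl libraries overlap.

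Genes that build, bind or regulate the small subunit were compared with its proteins, from lists written with earlier results of these data known. Of 49 tested factors of 40S assembly, 0 were lower and 8 higher at an unadjusted p of at most 0.05, which is 16.3% of them beside 12.8% of all genes. After median-of-ratios and upper quartile scaling 2 were higher, beside 6.53% and 6.01% of all genes. With the replicate numbers as a block 5 were higher, beside 11.2%. With the length offset 1 was higher, beside 7.03%, and 2 were lower, beside 5.85%. Without oEV-EMT 2 there were 3 higher, beside 9.31%, and without oEV-ctrl 2 there were 2, beside 8.15%. The median relative value of the 49 factors was 0.05. It was -0.03 without oEV-EMT 1, -0.02 without oEV-ctrl 2, 0.10 without oEV-EMT 3 and 0.09 without oEV-ctrl 1. The highest was Rcl1, a factor of pre-rRNA processing, with 64.2, 41.8 and 41.5 FPKM with oEV-EMT and 29.1, 20.9 and 32 FPKM with oEV-ctrl. Its groups did not overlap, with a log2 fold change of 0.82 ± 0.25 (SE) and a limma adjusted p of 0.194. The lowest was Ngdn, with 51.3, 79 and 58.9 FPKM with oEV-EMT and 84.9, 68.8 and 71 FPKM with oEV-ctrl, a log2 fold change of -0.26 ± 0.22 (SE) and overlapping groups. Among the 13 other TOP mRNAs, such as those of elongation factors, 0 were lower and 0 higher, beside 2.55% and 12.8% of all genes, and 12 lay below the median of all genes, at a median of -0.15, which was -0.27 without oEV-EMT 3 and -0.06 without oEV-ctrl 1. The most abundant of those named, Eef1a1, which brings aminoacyl-tRNA to the ribosome, read 3243, 3024 and 3114 FPKM with oEV-EMT and 3626, 3149.6 and 3312 FPKM with oEV-ctrl, a log2 fold change of -0.10 ± 0.17 (SE).

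Of 32 tested factors that bind the small subunit in initiation, 1 was lower (Eif2s2) and 2 were higher at an unadjusted p of at most 0.05, beside 2.55% and 12.8% of all genes, with a median of -0.04, 0.01 without oEV-ctrl 1, -0.11 without oEV-ctrl 2 and -0.07 without oEV-ctrl 3. Total scaling gave 6 higher and 0 lower, beside 16.1% and 1.61% of all genes. Eif4a1, the helicase that unwinds mRNA leaders, read 428, 332 and 389.5 FPKM with oEV-EMT and 148, 177 and 239.7 FPKM with oEV-ctrl. All its oEV-EMT values lay above the controls, with a log2 fold change of 1.04 ± 0.22 (SE) and a limma adjusted p of 0.118. Eif2s2, a subunit of the factor that delivers the initiator tRNA, read 983, 1075 and 1339.8 FPKM with oEV-EMT and 1635, 1488 and 1453 FPKM with oEV-ctrl, below the controls in every oEV-EMT library, with a log2 fold change of -0.44 ± 0.19 (SE) and a limma adjusted p of 0.296. In the S6 kinase and mTOR list, 0 of 18 were lower and 2 higher, beside the same 2.55% and 12.8% of all genes, with a median of -0.08, 0.04 without oEV-EMT 3. Eif4ebp1, the mTOR target that holds back cap-dependent initiation, read 288, 298 and 265 FPKM with oEV-EMT and 157, 135 and 160.1 FPKM with oEV-ctrl, without overlap, with a log2 fold change of 0.91 ± 0.18 (SE) and a limma adjusted p of 0.105. Larp1, which binds TOP mRNAs, read 14.4, 1.68 and 1.34 FPKM with oEV-EMT and 0.964, 0.732 and 0.897 FPKM with oEV-ctrl. Its oEV-EMT mean rested on oEV-EMT 1, and its log2 fold change of 1.30 ± 0.73 (SE) had a limma adjusted p of 0.451.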

How the data were processed

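RNA of 6 libraries of 10 blastocysts was polyA-selected and sequenced by the authors with a kit that is not stated to keep strand. The authors aligned reads, assembled transcripts with StringTie and deposited 1 table of 55774 rows. Per the labels the build is mm10; the aligner, the annotation and the versions are not given in the sources used here. The methods speak of TPM, but sums per library exceed 1000000 and differ, so the deposited values were taken as FPKM. Of the identifiers, 55227 matched GENCODE M21 (GRCm38), and 287 rows were unannotated. Read depth is unknown.

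Genes with at least 1 FPKM in at least 3 libraries (11924) were fitted as log2(FPKM + 1) with limma 3.58.1 in R 4.3.3 (trended, robust variance, no covariate), with p adjusted by Benjamini-Hochberg. A log2 fold change on this scale understates changes of low genes. Single values were compared by exact permutation tests (scipy 1.17.1). The fit was tested on simulated data. Alternatives covered scaling, pseudocount, filter, replicate block, transcript length offset, summing with genes sharing sequence and leaving out each library. The weighting of libraries by quality was added after seeing the data, as were counts of members without overlap in the higher direction and of members below the median of all genes. Unannotated rows took part in library totals only where a total is named. Members and lists were chosen with earlier results of these data known. Members given library by library were 11 with functions of their own, the 6 lowest and the 3 highest by log2 fold change and those without overlap. Some members enter the counts and medians, but their own values are not reported here. Up to 3 genes at either end were eligible for naming in the other lists.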

Additional observations from a re-analysis of the deposited data

How the results depend on the processing

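The number of members called stayed at 0 in every alternative run. With libraries weighted by quality, an alternative chosen after seeing the data, Rps28 reached an adjusted p of 0.0462 by limma at a log2 fold change of -0.89, short of the fold threshold, and 104 of all genes were called. Its adjusted p ranged from 0.164 to 0.609 over the other alternatives. Members lower at an unadjusted p, 2 in the report, numbered 9 after median-of-ratios scaling (6.42% of all genes), 10 after upper quartile scaling (6.68%), 6 with a transcript length offset (5.85%), 5 when summed with genes sharing sequence (2.58%) and 7 with quality weights (5.02%), where 1 was higher (18.4%). Members without overlap in the lower direction numbered 12, 13, 2 and 7 after median-of-ratios, upper quartile and total scaling and the length offset (10.2%, 10.7%, 2.71% and 9.64% of all genes), and in the higher direction 0, 0, 4 and 0 (9.94%, 9.23%, 22.7% and 10.3%), with 1 after summing (18.1%). Without a filter on low values the median of all genes moved, and relative medians became -0.072 for the members, -0.022 for the head, -0.10 for the body and platform, -0.016 for the large subunit, 0.034 for the S6 kinase list, 0.20 for assembly factors, 0.11 for initiation factors and -0.00018 for other TOP mRNAs. The head stood at -0.24 with the length offset, -0.27 after summing and -0.27 with weights. With the length offset other TOP mRNAs stood at -0.26, the S6 kinase list at 0.062, and the correlation with length at 0.24.

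Directions that changed, relative to the median of all genes, were Rps4x (0.079) and Rps26 (0.11) without a filter, Fau (0.050) and Rps2 (-0.058) with weights, and Rps12 (-0.087) and Rps2 (-0.10) after summing. Rps3 became -0.0072 after median-of-ratios and -0.011 after upper quartile scaling, -0.0026 with a pseudocount of 0.1 and -0.084 with the length offset. The small-subunit share differed by -0.159 points after summing and -0.487 of nuclear protein-coding FPKM. Where no reason is given, the cause was not tested. Of the 19 members that the naming rule covers, 12 kept their direction in every alternative.

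Leaving out each library in turn gave 2 to 5 members lower and 0 to 1 higher at an unadjusted p, beside 1.69% to 4.84% and 7.88% to 13.9% of all genes. Without overlap it gave 4 to 8 lower and 2 to 6 higher, beside 5.89% to 12.6% and 21.8% to 30.6%. Medians ranged from -0.28 to -0.16 for the head and -0.27 to -0.065 for other TOP mRNAs. Relative values ranged from -0.23 to 0.033 for Rps4x, -0.27 to 0.047 for Fau, -0.019 to 0.22 for Rps6, -0.055 to 0.15 for Rps3, -0.19 to 0.13 for Rps26 and -0.023 to 0.41 for Rps12. The difference in share of annotated FPKM ranged from -0.0496 to 0.312 points.

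The labels do not say whether libraries with the same replicate number were handled together. Same-numbered libraries correlated at 0.12, -0.04 and 0.04 in their deviations, and not every library correlated best with its own number. These correlations cannot tell whether the libraries were paired. With a replicate block 0 members were called, and 2 were lower at an unadjusted p, beside 2.36% of all genes. Of all genes 21, or 0.176%, were called with the block, against 0 without it. For single values the block allows no p below 0.25. Read depth is unknown, so the counting error of low values could not be given.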
